A study of Arabidopsis thaliana with 6 samples.

Results

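The 50 genes described here form the nuclear auxin response pathway of Arabidopsis thaliana: 29 Aux/IAA repressor genes, 15 ARF transcription factor genes and 6 TIR1/AFB receptor genes. They were taken by gene identifier from a table of read counts for 32678 genes, and all 50 were found in it. Auxin (indole-3-acetic acid) is bound jointly by a TIR1/AFB F-box protein and an Aux/IAA protein. The F-box protein is part of an SCF ubiquitin ligase, and the bound Aux/IAA is ubiquitinated and broken down by the proteasome. Aux/IAA proteins otherwise sit on ARF proteins at auxin-responsive promoters and recruit TPL corepressors, so their loss frees the ARFs. Many Aux/IAA genes are themselves induced by auxin within minutes to hours, which makes them common reporters of auxin response in seedlings and leaves.

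Wild-type (WT) seedlings had 7 days on MS plates and were then kept for 12 h without melatonin, with 100 µM melatonin or with 1000 µM melatonin, an indoleamine that plants make from tryptophan, as they do auxin. Each of the 3 groups had 2 libraries, numbered replicate 1 and 2 in the labels. RNA came from leaf, per the labels (rosette leaves in the extraction text), while root growth is what the series title names. Whether a group's libraries came from separate plants is not said, so each p-value rests on a replicate spread that could be technical.

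Libraries held 6410046 to 7723602 counts. All 7 leaf markers looked at (Rubisco, its activase and light-harvesting genes among them) had more than 3 counts in each library, and so did 11 of 17 root markers. Summed root markers stood at 3264 and 3385 CPM without melatonin, 3132 and 3183 at 100 µM, and 2066 and 2109 at 1000 µM. CPM are counts scaled for depth, over library sizes corrected with TMM factors. PYK10 alone gave 3177 and 3315, 3061 and 3117, and 2006 and 2051 of these, so the sum mostly follows that gene. Leaf markers summed to 20445 to 22103, 19268 to 19753 and 12517 to 13789 CPM in the same order. RBCS1A and RCA, of Rubisco and its activase, made up most of the leaf sum. Guard cell markers summed to 54.0 to 58.8, 53.9 to 54.6 and 59.96 to 61.6. The 6 shoot apex markers summed to 23.6 to 24.6, 22.5 to 24.9 and 23.7 to 24.5, and CLV3 among them had 0 counts in every library. The part of these differences in the results below was not tested, and in bulk RNA fewer cells of a type cannot be told apart from less RNA per cell. Replicates differed most at 1000 µM, where chi-square per degree of freedom between them was 5.6, against 1.94 without melatonin and 1.84 at 100 µM.

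The small RNA sites of the receptors and of the ARFs are shown first, since they divide the families into the groups used below. The microRNA miR393 is known to cut the messages of TIR1, AFB2 and AFB3. Its mature sequence and the window of each receptor transcript that pairs best with it were read from the RefSeq genome and annotation (TAIR10.1). Capitals in the microRNA mark bases 2 to 8, and capitals in a transcript mark bases that do not pair, G-U pairs being counted as unpaired.
miR393a: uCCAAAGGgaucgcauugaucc
AFB3: gAaAcaatgcgatccctttgga
AFB2: gAaAcaatgcgatccctttgga
TIR1: gAGAcaatgcgatccctttgga
AFB1: gAGAcCatgcgatccctttgga
AFB4: ggTtcaaAgAgCtTActttggT
AFB3 and AFB2 have the same window with 2 unpaired bases, TIR1 has 3, AFB1 has 4, AFB4 has 7 and AFB5, not shown, has 8. The windows lie in coding exons, at chr1:4369085-4369106 on the minus strand for AFB3, chr3:9870237-9870258 on the plus strand for AFB2 and chr3:23273727-23273748 on the minus strand for TIR1, and at chr4:1405341-1405362 on the minus strand for AFB1 and chr4:12615419-12615440 on the minus strand for AFB4.

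ARF2, ARF3 and ARF4 are the known targets of a trans-acting small interfering RNA made from the TAS3 precursors. The window of the TAS3A transcript that pairs best with all 3 ARF transcripts, and their matching windows, are given in the same way.
TAS3A: tttcttgaccttgtaagaccc
ARF2: gggtcttGcaaggtcaagaaT
ARF3: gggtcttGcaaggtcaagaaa
ARF4: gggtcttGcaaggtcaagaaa
ARF3 and ARF4 carry the same 21 bases with 1 unpaired base, and ARF2 has 2. These windows are in coding exons, at chr5:24913262-24913282 on the plus strand, chr2:14325941-14325961 on the minus strand and chr5:24309507-24309527 on the minus strand. No other member pairs with fewer than 7 unpaired bases, but the window was chosen for its pairing with these 3, so this is not a test of specificity.

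Aux/IAA proteins are recognised by the receptors through a short degron whose core reads Gly-Trp-Pro-Pro. Of the 29 Aux/IAA genes, 23 hold codons for this core in frame in their RefSeq coding sequence, and IAA31 holds those for Trp-Pro-Pro alone. IAA20, IAA30, IAA32, IAA33 and IAA34 hold neither. Windows of 39 coding bases, with the core in capitals, are shown for IAA7, IAA16 and IAA9, which rose at the higher dose, for their relatives IAA14 and IAA8, which fell, and for IAA28 and IAA29.
IAA7: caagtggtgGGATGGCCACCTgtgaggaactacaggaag
IAA16: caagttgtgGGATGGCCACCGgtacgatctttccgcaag
IAA14: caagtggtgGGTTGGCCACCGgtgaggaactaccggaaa
IAA9: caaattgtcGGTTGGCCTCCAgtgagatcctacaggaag
IAA8: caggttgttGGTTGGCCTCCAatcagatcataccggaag
IAA28: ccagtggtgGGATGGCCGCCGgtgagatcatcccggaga
IAA29: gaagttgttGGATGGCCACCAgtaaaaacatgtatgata
All 7 have the core, and they differ in the codons beside it. The windows lie in coding exons, at chr3:8195568-8195606 on the plus strand for IAA7, chr3:1289721-1289759 on the minus strand for IAA16 and chr4:8349469-8349507 on the minus strand for IAA14. Those of IAA9 and IAA8 are at chr5:26255104-26255142 on the plus strand and chr2:9637725-9637763 on the plus strand, and those of IAA28 and IAA29 at chr5:9033812-9033850 on the plus strand and chr4:15583942-15583980 on the plus strand.

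Of the 50 members, 41 had enough counts to be tested, among them 20 Aux/IAA genes and every ARF and TIR1/AFB gene of the list. The 9 others were IAA5, IAA6, IAA15, IAA20, IAA30, IAA31, IAA32, IAA33 and IAA34, with 0 to 39 counts over the 6 libraries together. All 5 Aux/IAA genes without codons for Trp-Pro-Pro were among them. IAA15 had 0 counts in every library, which allows up to 0.0705 CPM (3 counts over the 6 libraries, counting error only). IAA30, with 39 counts in all, had its highest count, 15, in 1000 µM replicate 2.

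Levels of different genes were compared per kilobase of their longest-coding RefSeq transcript. Without melatonin IAA7 was highest with a mean of 201 CPM per kilobase, followed by IAA16 with 133 and IAA9 with 124, whose libraries overlapped, and by ARF2 with 112. TIR1 and AFB5 stood at 52.6 and 53.8 CPM per kilobase, a difference within the spread of their libraries, and were above AFB2 (27.8), AFB3 (26.02), AFB1 (14.3) and AFB4 (5.98). Among activating ARFs, which carry a glutamine-rich middle region, ARF6 (22.3) and ARF7 (15.9) stood above ARF8 (7.62), ARF19 (6.38) and ARF5 (4.61). The lowest tested member was ARF17, with 2.41 CPM per kilobase.

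**Figure D1:**
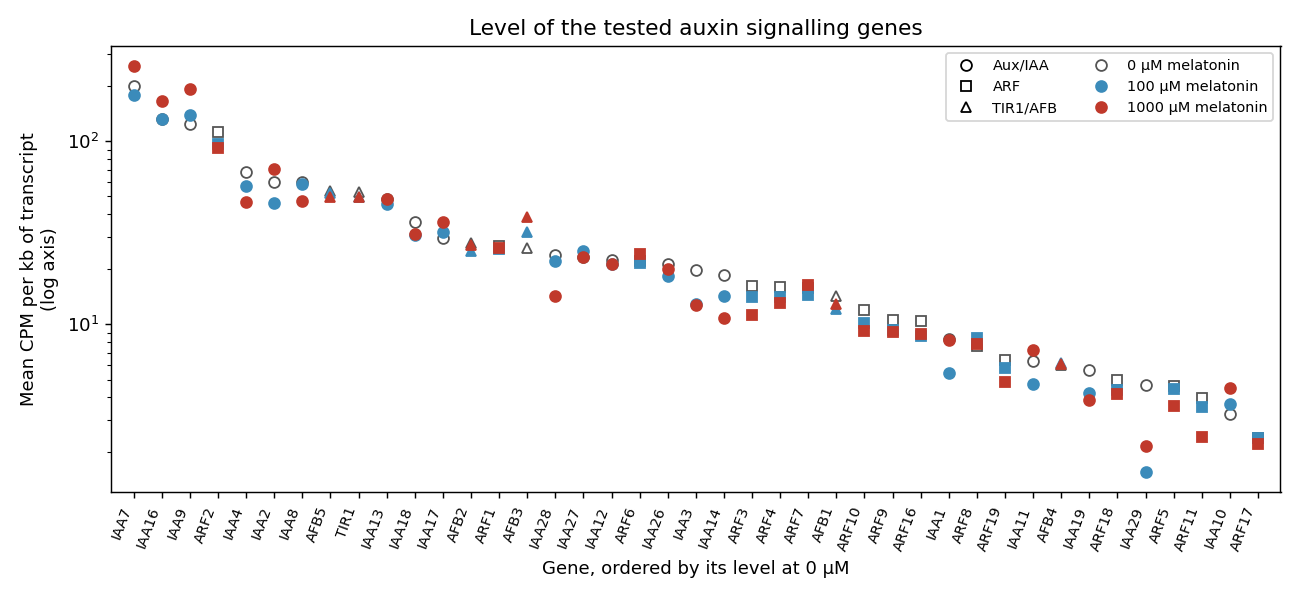
Mean CPM per kilobase of transcript (log axis, n = 2 libraries a point) of the 41 tested members, ordered by the level without melatonin, with marker shapes for the family and colours for the dose. IAA7, IAA16 and IAA9 lead at each dose, and IAA29 is among the lowest.

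At 1000 µM melatonin, 15 of the 41 tested members changed: IAA7, IAA9, IAA16 and AFB3 rose, and IAA3, IAA4, IAA8, IAA14, IAA28, IAA29, ARF2, ARF3, ARF4, ARF11 and ARF19 fell (edgeR's quasi-likelihood test, Benjamini-Hochberg adjusted p under 0.05 over all 18380 genes tested). That is 36.6% of the tested members, beside 29.6% of all genes tested. For rises it is 9.76% beside 15.2%, and for falls 26.8% beside 14.5%. The median log2 change was -0.11 over the members and -0.01 over all genes. Without control replicate 1 or 2 the count of members was 9 or 6, the remaining control being assumed to vary like the other groups. Without control replicate 1, 2 rose and 7 fell of 42 tested, beside 1719 and 1641 of 18817 genes. Without control replicate 2, 3 rose and 3 fell of 42, beside 1727 and 1591 of 18690 genes, so that falls no longer outnumbered rises among the members. IAA3, IAA9, IAA28, ARF3 and AFB3 kept their calls without any one library, with another scaling of the libraries and under every other alternative tried, DESeq2 among them.

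At 100 µM the changes were few: IAA3 and IAA29 fell, 2 of 41 members or 4.88%, beside 3.32% of all genes tested. Falls alone were 4.88% beside 1.53%, and rises 0% beside 1.79%. The members' median log2 change was -0.14, beside -0.01 over all genes. Below 0 were 33 of 41 members, beside 9367 of 18380 genes. No member passed with DESeq2, nor without control replicate 2, 100 µM replicate 1 or 100 µM replicate 2. IAA29 alone passed without control replicate 1, and 6 members passed when 1000 µM replicate 1 was left out, as when replicate 2 was. DESeq2 gave no adjusted p for IAA29 at this dose, so that call was not tested there. Both comparisons use the same control libraries, so they are not independent.

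**Figure D2:**
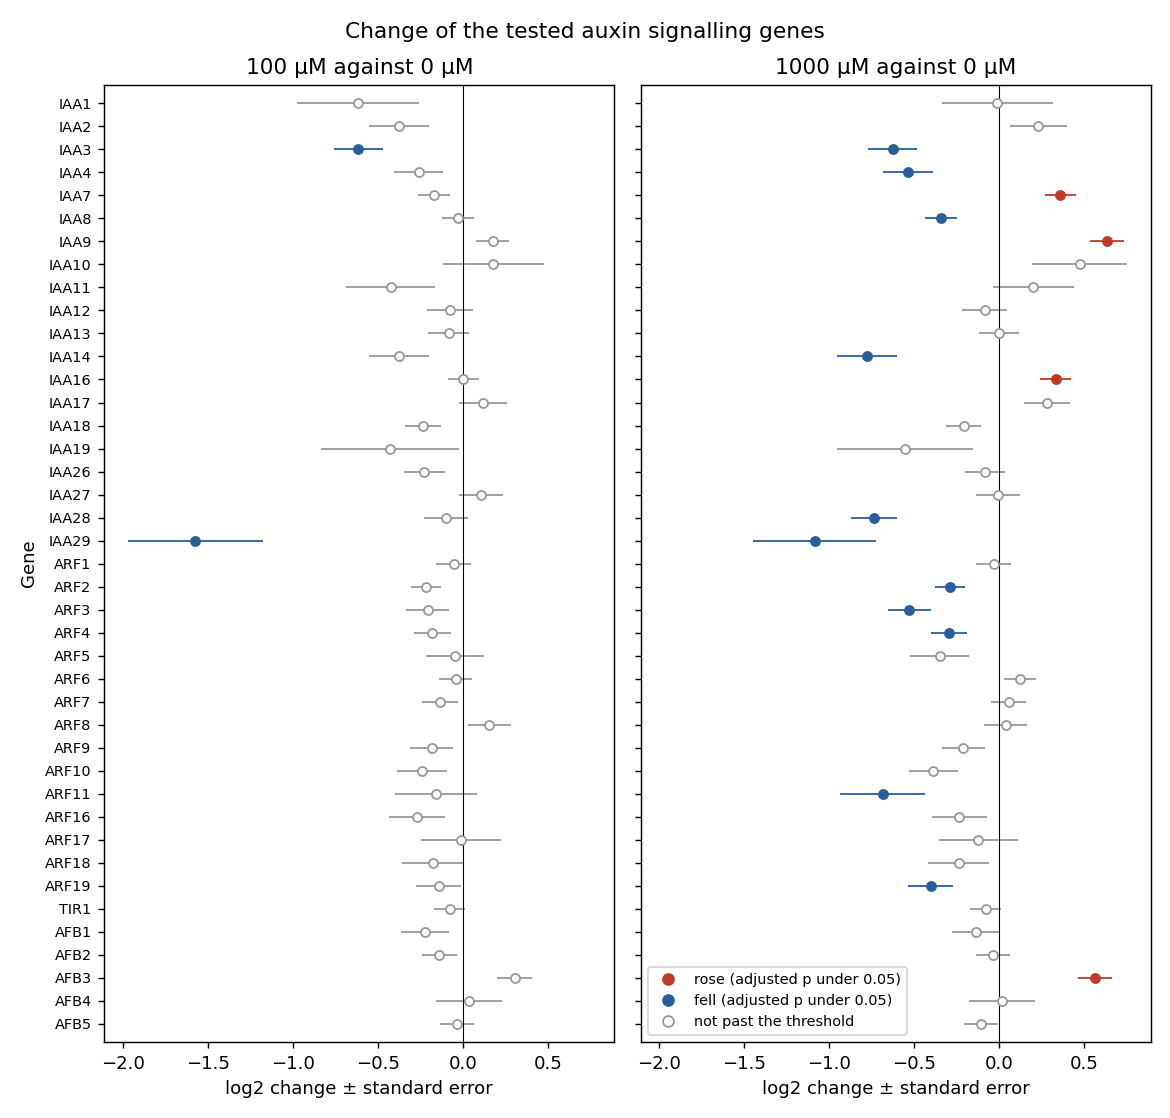
Log2 change ± standard error of the 41 tested members at 100 µM (left) and 1000 µM (right) against the libraries without melatonin, with filled points for adjusted p under 0.05. At 100 µM only IAA3 and IAA29 are filled, and at 1000 µM 4 members lie filled to the right and 11 to the left.

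Of the 6 receptors, AFB3 rose at 1000 µM (16.7% of them, beside 15.2% of all genes) and the other 5 did not pass. TIR1 (AT3G62980), the founding receptor of the family, measured 136 and 143 CPM without melatonin, 131 and 132 at 100 µM and 135 and 128 at 1000 µM. Its log2 change at 1000 µM was -0.08 ± 0.09 (95% interval -0.27 to 0.11), and at 100 µM -0.08 ± 0.09 (adjusted p = 0.543 and 0.752, edgeR). The 1000 µM libraries lay below both controls, replicate 1 by little.

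AFB3 (AT1G12820), a receptor whose message is regulated by nitrate as well as by miR393, measured 59.7 and 56.6 CPM without melatonin, 69.5 and 73.8 at 100 µM and 87.5 and 84.3 at 1000 µM. Every library with melatonin was above both controls, and the 1000 µM libraries were above those at 100 µM. The rise at 1000 µM was 1.48-fold (log2 change 0.56 ± 0.10, adjusted p = 0.000329 by edgeR). At 100 µM the log2 change was 0.30 ± 0.10 (adjusted p = 0.134), and it passed with only these groups fitted (adjusted p = 0.0239) and without 1000 µM replicate 1 or 2 (adjusted p = 0.0218 and 0.0224). AFB3 overlaps another gene of the table, AT1G12810, and counting that ignores strand would not separate their reads.

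AFB2 (AT3G26810), whose miR393 window is the same as that of AFB3, measured 74.4 and 77.8 CPM without melatonin, 66.7 and 71.5 at 100 µM and 77.1 and 70.9 at 1000 µM. Both values at the lower dose were below the controls, and those at the higher dose overlapped with both groups. The log2 change was -0.04 ± 0.10 at 1000 µM (95% interval -0.25 to 0.17, adjusted p = 0.797 by edgeR) and -0.14 ± 0.10 at 100 µM (adjusted p = 0.566). The ratio of AFB3 to AFB2 counts was 0.802 and 0.728 without melatonin, 1.04 and 1.03 at 100 µM and 1.13 and 1.19 at 1000 µM, and the 3 groups did not overlap in it. The share of AFB3 in the summed CPM of the 6 receptors went from 13.0% and 12.4% without melatonin to 15.7% and 16.2% at 100 µM and 18.1% and 19.0% at 1000 µM. Summed, all 6 gave 461 and 456 CPM without melatonin, 443 and 456 at 100 µM and 484 and 444 at 1000 µM, with overlapping groups.

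AFB1, AFB4 and AFB5, the last 2 of which belong to the branch that binds the auxin-like herbicide picloram, did not pass at either dose. Their log2 changes at 1000 µM were -0.14 ± 0.14, 0.02 ± 0.19 and -0.11 ± 0.10, with 95% intervals of -0.43 to 0.16, -0.39 to 0.42 and -0.32 to 0.11. The precursors of miR393 could not be followed: MIR393A and MIR393B had at most 1 count in any library.

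**Figure D3:**
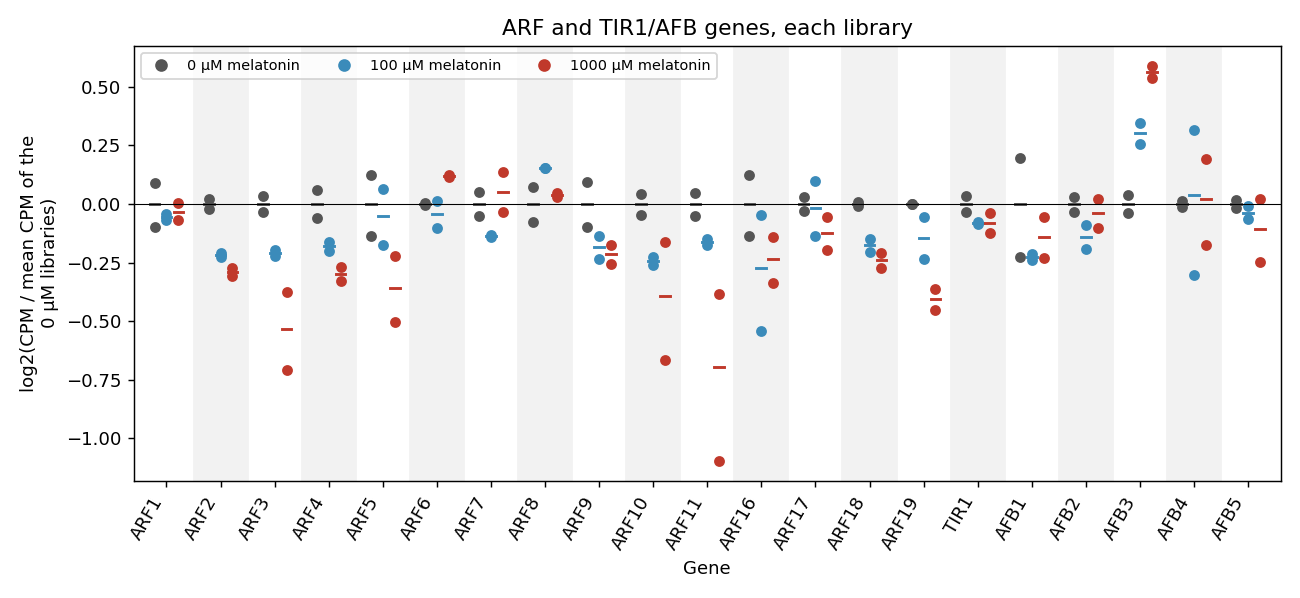
Log2 ratio of each library's CPM to the mean of the libraries without melatonin for the 15 ARF and 6 TIR1/AFB genes, with points for libraries and bars for group means. AFB3 steps up with dose, while TIR1 and the ARFs other than ARF1, ARF6, ARF7 and ARF8 lie below both controls at 1000 µM.

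Among the 20 tested Aux/IAA repressors, 3 rose at 1000 µM (15%, beside 15.2% of all genes) and 6 fell (30%, beside 14.5%). The 3 that rose had the highest levels per kilobase without melatonin. IAA9 (AT5G65670), whose tomato counterpart controls leaf shape and fruit set, measured 225 and 258 CPM without melatonin, 259 and 286 at 100 µM and 389 and 362 at 1000 µM. All 1000 µM libraries stood above all others, a 1.55-fold rise (log2 change 0.63 ± 0.10, adjusted p = 0.0001 by edgeR). Against 100 µM the log2 change was 0.46 ± 0.10 (adjusted p = 0.00344), which no longer passed once 100 µM replicate 1 was left out (adjusted p = 0.116).

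IAA7 (AT3G23050), in which the dominant axr2 mutation stabilises the protein and dwarfs the plant, measured 252 and 283 CPM without melatonin, 229 and 246 at 100 µM and 346 and 340.4 at 1000 µM. Values at the lower dose were below both controls and those at the higher dose above them. At 1000 µM it was 1.28-fold higher (log2 change 0.36 ± 0.09, adjusted p = 0.00759 by edgeR), but the call ended without control replicate 1 (adjusted p = 0.178). Against 100 µM it rose by 0.53 ± 0.09 on the log2 scale (adjusted p = 0.000788), and this call was kept under all 11 alternatives.

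IAA16 (AT3G04730), of the same clade as IAA7, measured 264 and 273 CPM without melatonin, 272 and 265 at 100 µM and 322 and 354 at 1000 µM. Both 1000 µM libraries were the highest, with a log2 change of 0.33 ± 0.09 against the control (adjusted p = 0.0106 by edgeR) and 0.33 ± 0.09 against 100 µM (adjusted p = 0.0191). The first call ended without control replicate 1 or 2 (adjusted p = 0.133 and 0.0852), and the second without any one library other than those at 1000 µM and with only these groups fitted (adjusted p = 0.0552 to 0.192).

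IAA14 and IAA8, close relatives of these 3 genes, fell at the same dose. IAA14 (AT4G14550), the clade partner of IAA7 and IAA16 whose dominant solitary-root mutation blocks lateral roots, measured 17.5 and 21.5 CPM without melatonin, 14.02 and 16.00 at 100 µM and 9.83 and 12.8 at 1000 µM. Its libraries at 1000 µM were below all others. It fell by 0.78 on the log2 scale at 1000 µM (standard error 0.18, adjusted p = 0.00293 by edgeR), with an adjusted p of 0.0613 without control replicate 2. The ratio of IAA7 to IAA14 counts was 14.4 and 13.2 without melatonin, 16.4 and 15.4 at 100 µM and 35.2 and 26.7 at 1000 µM. IAA17, the remaining gene of that clade, did not pass (log2 change 0.28 ± 0.14, adjusted p = 0.137).

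IAA8 (AT2G22670), of the clade of IAA9, measured 96.5 and 98.5 CPM without melatonin, 97.7 and 93.1 at 100 µM and 74.8 and 78.9 at 1000 µM. Libraries at the higher dose were the lowest (log2 change -0.34 ± 0.09, adjusted p = 0.0111 by edgeR). That call ended with DESeq2 (adjusted p = 0.0667) and without control replicate 1 or 2 (adjusted p = 0.0745 and 0.105). Against 100 µM the log2 change was -0.31 ± 0.10 (adjusted p = 0.0336), and this call was lost with DESeq2 (adjusted p = 0.156), with only these groups fitted (adjusted p = 0.0687) and without any one control or 100 µM library (adjusted p = 0.0763 to 0.275). The ratio of IAA9 to IAA8 counts was 2.33 and 2.62 without melatonin, 2.65 and 3.07 at 100 µM and 5.2 and 4.58 at 1000 µM. IAA27, also of that clade, had a log2 change of -0.01 ± 0.13 at 1000 µM (adjusted p = 0.978).

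IAA28 (AT5G25890), a repressor that acts in the root basal meristem before lateral roots form, measured 33.8 and 32.5 CPM without melatonin, 28.04 and 33.9 at 100 µM and 19.1 and 20.6 at 1000 µM. It fell at 1000 µM to 0.60 of the control level (log2 change -0.74 ± 0.13, adjusted p = 0.00045 by edgeR), and fell against 100 µM as well (log2 change -0.64 ± 0.14, adjusted p = 0.00348, and 0.097 without 100 µM replicate 2). Controls and 100 µM libraries overlapped. Root markers moved alongside, with 7 of 14 tested falling (50%, beside 14.5% of all genes) and 1 rising (7.14%, beside 15.2%) at 1000 µM. Leaf markers fell too, 5 of 7 tested (71.4%, beside 14.5% of all genes). The part of either in the change of IAA28 was not tested.

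IAA3 and IAA4 are close in sequence, and IAA3 (SHY2) links auxin with cytokinin in the root meristem. IAA3 (AT1G04240) measured 26.1 and 27.6 CPM without melatonin, 18.8 and 16.2 at 100 µM and 16.3 and 18.3 at 1000 µM. All 4 libraries with melatonin were below both controls, and the doses overlapped. It fell by 0.62 ± 0.14 on the log2 scale at 100 µM (adjusted p = 0.0243 by edgeR) and by 0.63 ± 0.14 at 1000 µM (adjusted p = 0.00286). The call at 100 µM ended with DESeq2 (adjusted p = 0.171) and without any library of the controls or of the 100 µM group (adjusted p = 0.112 to 0.337), while the log2 change stayed between -0.73 and -0.51. IAA3 overlaps AT1G04230 of the table, and counting that ignores strand would not separate their reads in the overlap.

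IAA4 (AT5G43700) measured 86.2 and 98.7 CPM without melatonin, 76.2 and 77.98 at 100 µM and 49.8 and 77.2 at 1000 µM. Replicates at the higher dose lay far apart. Its log2 change at 1000 µM was -0.54 ± 0.15 (adjusted p = 0.01 by edgeR), and -0.25 without 1000 µM replicate 1 (adjusted p = 0.0587) or -0.88 without 1000 µM replicate 2. The call also ended without control replicate 2 (adjusted p = 0.106). At 100 µM the log2 change was -0.26 ± 0.15 (adjusted p = 0.421), which passed when either 1000 µM library was left out (adjusted p = 0.0413 and 0.0407).

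**Figure D4:**
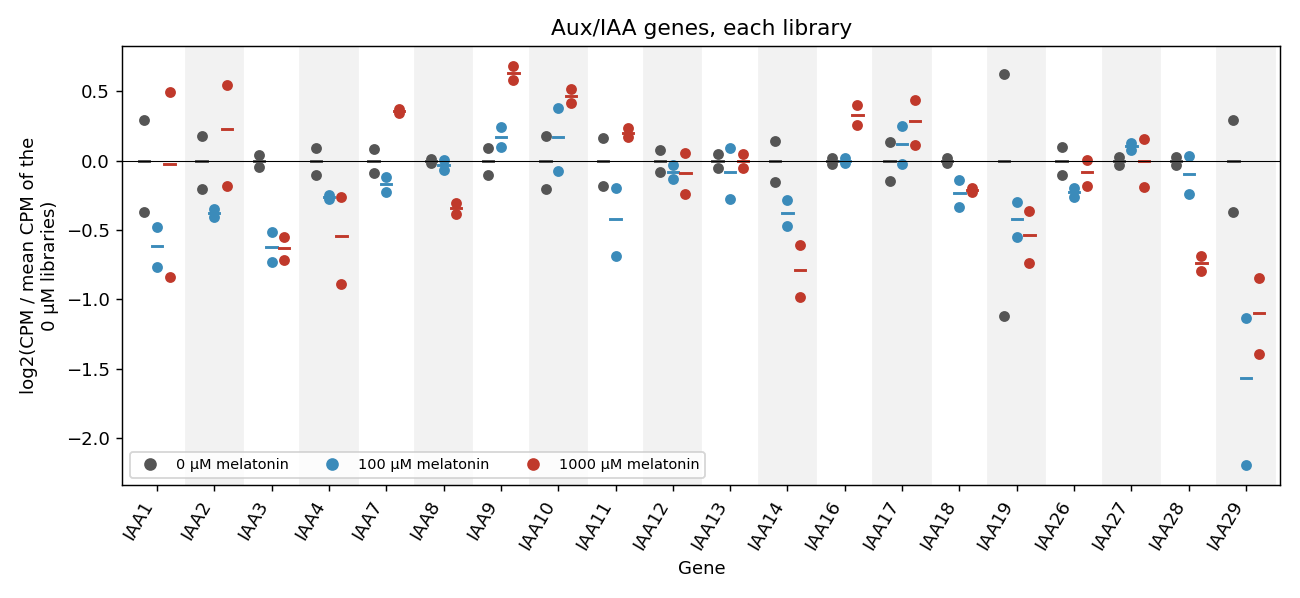
Log2 ratio of each library's CPM to the mean of the libraries without melatonin for the 20 tested Aux/IAA genes, with points for libraries and bars for group means. IAA7, IAA9, IAA10, IAA11 and IAA16 lie above the controls at 1000 µM, and IAA3, IAA4, IAA8, IAA14, IAA18, IAA28 and IAA29 below them. The controls of IAA19 lie far apart.

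IAA29 (AT4G32280), a target of light-regulated PIF factors that takes part in shade and warmth growth responses, was low throughout, with 4.22 and 6.7 CPM without melatonin, 1.19 and 2.49 at 100 µM and 2.08 and 3.03 at 1000 µM. All libraries with melatonin were below both controls. The log2 change was -1.57 ± 0.40 at 100 µM (adjusted p = 0.0373 by edgeR) and -1.09 ± 0.36 at 1000 µM (adjusted p = 0.0315). Without control replicate 2 these were -1.20 and -0.71, and neither passed (adjusted p = 0.386 and 0.32). The call at 100 µM also ended without 100 µM replicate 1 or 2 (adjusted p = 0.405 and 0.129), and that at 1000 µM without 1000 µM replicate 1 (adjusted p = 0.137) and with DESeq2 (adjusted p = 0.182).

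IAA19 (AT3G15540), an auxin-induced repressor of hypocotyl bending known from the massugu mutant, did not pass at either dose. It measured 2.62 and 8.75 CPM without melatonin, 4.62 and 3.88 at 100 µM and 4.43 and 3.41 at 1000 µM, and all 4 libraries with melatonin lay between the controls. Its log2 change was -0.43 ± 0.41 at 100 µM and -0.55 ± 0.40 at 1000 µM (adjusted p = 0.682 and 0.323, edgeR). Without control replicate 2 these were 0.70 and 0.57, and without control replicate 1 the second was -1.16 (adjusted p = 0.0176). The control libraries also differed in some auxin-induced genes outside the family. LBD18, a lateral organ boundary factor of lateral root formation, had 5 and 62 counts in them and 2 to 5 in the other libraries. LBD29, of the same kind, had 3 and 67 and then 1 to 6. LBD16, likewise of this kind, had 32 and 28 counts in the controls, so not all such genes were higher in control replicate 2. In control replicate 2, 16 of the 20 tested Aux/IAA genes were higher than in control replicate 1. Replicate 2 was the higher for 14 of 20 at 100 µM and 12 of 20 at 1000 µM. Over all 41 tested members it was the higher for 27 without melatonin, 23 at 100 µM and 26 at 1000 µM. The share over all genes was not computed, so these counts have no background to be read against.

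IAA2 (AT3G23030), an early auxin-induced gene, measured 71.02 and 92.2 CPM without melatonin, 61.7 and 64.2 at 100 µM and 71.9 and 119 at 1000 µM. It was lowest at 100 µM and passed between the doses (log2 change 0.60 ± 0.17, adjusted p = 0.0233 by edgeR), but not against the control (-0.38 ± 0.17 and 0.23 ± 0.17, adjusted p = 0.316 and 0.334). Its 1000 µM replicates differed by a factor of 1.66. Between the doses the log2 change was 0.92 without the first of them and 0.20 without the second (adjusted p = 0.239), and the call was also lost without 100 µM replicate 1 or 2 (adjusted p = 0.188 and 0.144) and with DESeq2 (adjusted p = 0.292). At 100 µM against the control, IAA2 passed without the filter on low counts (adjusted p = 0.0219) and without 1000 µM replicate 1 or 2 (adjusted p = 0.00988 and 0.0105), and at 1000 µM it passed without 1000 µM replicate 1 (log2 change 0.55, adjusted p = 0.000183) and had a log2 change of -0.18 without the other. IAA1, its closest relative, also differed between the 1000 µM replicates, by a factor of 2.51, with 6.11 and 9.7 CPM without melatonin, 5.67 and 4.66 at 100 µM and 4.43 and 11.1 at 1000 µM.

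Between the doses 6 members changed, 14.6% of those tested beside 16% of all genes (9.76% beside 8.65% for rises, 4.88% beside 7.3% for falls). IAA2, IAA7, IAA9 and IAA16 were higher at 1000 µM than at 100 µM and IAA8 and IAA28 lower, all of them Aux/IAA genes. The count was 2 without 100 µM replicate 1, 2 without 100 µM replicate 2 and 11 without 1000 µM replicate 2. No ARF and no receptor passed (smallest adjusted p by edgeR 0.111 for ARF3 and 0.0816 for AFB3). At an unadjusted p under 0.05 by edgeR, 1 of 15 ARFs and 1 of 6 receptors passed, beside 5221 of 18380 genes. DESeq2 called IAA7, IAA9, IAA16 and IAA28, and its count over all genes is given further below.

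Summed over the family, Aux/IAA RNA was 1363 and 1504 CPM without melatonin, 1320 and 1397 at 100 µM and 1602 and 1673 at 1000 µM, with both 1000 µM libraries the highest. IAA7, IAA9 and IAA16 together made up 54.4% and 54.2% of it without melatonin, 57.6% and 57.1% at 100 µM, and 65.9% and 63.1% at 1000 µM. All 26 others together gave 621 and 689 CPM without melatonin, 559.5 and 599 at 100 µM and 546 and 617 at 1000 µM. Every library with melatonin was below both controls in this sum, and the doses overlapped. The remaining 11 tested Aux/IAA genes did not pass at 1000 µM. Their log2 changes ran from -0.55 for IAA19 to 0.47 for IAA10, and the smallest adjusted p was 0.137, for IAA17.

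The ARF genes fell or did not pass, and none rose. At 1000 µM 5 of 15 fell (33.3%, beside 14.5% of all genes). At 100 µM 0 of 15 changed by edgeR, beside 3.32% of all genes, and 0 with DESeq2, beside 334 of 13734 genes. At an unadjusted p under 0.05 by edgeR it was 1 of 15, beside 2807 of 18380 genes. At the higher dose 12 of 15 had a log2 change below 0, beside 9408 of 18380 genes. The ARF median log2 change was -0.16 at 100 µM and -0.24 at 1000 µM, beside -0.01 over all genes at each dose.

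All 3 ARFs that pair with the TAS3A window fell at 1000 µM, beside 14.5% of all genes. Of these calls only that of ARF3 was kept under every alternative. ARF3 (AT2G33860, also ETTIN), which sets leaf and carpel polarity, measured 38.7 and 40.6 CPM without melatonin, 34.6 and 34.02 at 100 µM and 24.2 and 30.6 at 1000 µM. All 1000 µM libraries were below the others (log2 change -0.53 ± 0.13, adjusted p = 0.00446 by edgeR). ARF2 (AT5G62000), a repressor of growth and a promoter of leaf ageing that makes up 42.4% to 46.2% of the summed CPM of all ARF genes, measured 423 and 435 CPM without melatonin, 367 and 370.5 at 100 µM and 347 and 355 at 1000 µM. Its libraries stepped down in groups that did not overlap. The log2 change was -0.29 ± 0.09 at 1000 µM (adjusted p = 0.0193 by edgeR) and -0.22 ± 0.09 at 100 µM (adjusted p = 0.23, and 0.00947 and 0.00907 without 1000 µM replicate 1 or 2).

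The call of ARF2 at 1000 µM ended without any one control or 100 µM library (adjusted p = 0.0592 to 0.183) and with only these groups fitted (adjusted p = 0.0696), at log2 changes of -0.31 to -0.27. ARF4 (AT5G60450), which shares polarity functions with ARF3, measured 50.4 and 54.7 CPM without melatonin, 46.98 and 45.7 at 100 µM and 41.8 and 43.6 at 1000 µM. Its groups did not overlap with the controls (log2 change -0.30 ± 0.11, adjusted p = 0.0442 by edgeR). This call lay at the threshold: it was kept without 1000 µM replicate 2 and ended under the other 10 alternatives (adjusted p = 0.0527 to 0.295), each of the other 5 single-library omissions among them. TAS3A itself measured 8.88 and 8.75 CPM without melatonin, 7.31 and 7.3 at 100 µM and 6.37 and 7.71 at 1000 µM and did not pass (log2 change -0.32 ± 0.21 at 1000 µM, adjusted p = 0.286).

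ARF19 (AT1G19220), which with ARF7 activates lateral root genes, measured 27.7 and 27.6 CPM without melatonin, 26.5 and 23.5 at 100 µM and 20.2 and 21.5 at 1000 µM. Both 1000 µM libraries were the lowest (log2 change -0.40 ± 0.13, adjusted p = 0.0282 by edgeR), and the call ended without control replicate 1 or 2 (adjusted p = 0.124 and 0.124), without 1000 µM replicate 1 (adjusted p = 0.0853) and with DESeq2 (adjusted p = 0.213). ARF7 (AT5G20730) measured 71.3 and 66.4 CPM without melatonin, 62.5 and 62.9 at 100 µM and 67.3 and 75.6 at 1000 µM. Values at 100 µM were below all others, while those at 1000 µM overlapped with the controls. Its log2 change at 1000 µM was 0.05 ± 0.10 (95% interval -0.16 to 0.27, adjusted p = 0.73). ARF19 and ARF7 each overlap another gene of the table, AT1G19210 and AT5G20720.

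ARF5 (AT1G19850, also MONOPTEROS), the activating ARF of embryo and vein patterning, measured 18.2 and 15.2 CPM without melatonin, 17.4 and 14.8 at 100 µM and 11.8 and 14.3 at 1000 µM. Both values at the higher dose were below the controls, but the change did not pass (log2 change -0.35 ± 0.17, 95% interval -0.71 to 0.01, adjusted p = 0.139 by edgeR). ARF6 and ARF8, activators of flower maturation and known targets of miR167, stood at log2 changes of 0.12 ± 0.09 and 0.04 ± 0.12 at 1000 µM (adjusted p = 0.363 and 0.854). In all, 1 of the 5 activating ARFs passed, while 29.6% of all genes did. Their summed CPM was 233 and 227 CPM without melatonin, 227 and 215 at 100 µM and 225 and 237 at 1000 µM. Values at the lower dose lay narrowly below both controls, and those at 1000 µM overlapped with the controls.

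ARF11 (AT2G46530) measured 8.3 and 8.88 CPM without melatonin, 7.75 and 7.61 at 100 µM and 4.02 and 6.57 at 1000 µM, with 1000 µM replicates that differed by a factor of 1.64. It fell at 1000 µM just inside the threshold (log2 change -0.69 ± 0.25, adjusted p = 0.0477 by edgeR). Without 1000 µM replicate 1 the log2 change was -0.38 (adjusted p = 0.31) and without 1000 µM replicate 2 it was -1.08. The call also ended without any one control or 100 µM library (adjusted p = 0.0718 to 0.19), with DESeq2 (adjusted p = 0.232) and with only these groups fitted (adjusted p = 0.0785).

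The 3 ARFs targeted by miR160 did not pass. ARF10 had a log2 change of -0.39 ± 0.15 at 1000 µM (adjusted p = 0.0547 by edgeR), ARF16 of -0.23 ± 0.16 and ARF17 of -0.12 ± 0.23. Their transcripts pair with miR160a with 2, 3 and 1 unpaired bases. Of the miR160 precursors, MIR160C reached the test, with 0.873 and 1.23 CPM without melatonin, 0.746 and 0.777 at 100 µM and 1.8 and 1.9 at 1000 µM (log2 change 0.80 ± 0.48 at 1000 µM, adjusted p = 0.227). ARF1, ARF9 and ARF18 had log2 changes of -0.03 ± 0.10, -0.21 ± 0.13 and -0.24 ± 0.18 there, and none passed. Of 8 further ARF genes outside the 50, ARF20 had 1 to 11 counts a library, and the other 7 had 0 counts in every library.

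Partners of the receptors and repressors were read from lists of 12 SCF and RUB pathway genes and 5 corepressors. At 100 µM the smallest adjusted p among them by edgeR was 0.488, for ASK1. At 1000 µM 5 of the 12 rose and 0 fell (41.7%, beside 15.2% of all genes that rose), with a median log2 change of 0.29. RUB2, a gene for the ubiquitin-like RUB protein that activates the cullin, measured 48.8 and 45.6 CPM without melatonin, 49.5 and 49.6 at 100 µM and 76.3 and 74.6 at 1000 µM, a log2 change of 0.68 ± 0.10 (adjusted p = 7.13e-05). RUB2 is fused to ubiquitin, so reads shared with other ubiquitin genes make its value uncertain.

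RBX1A, the RING subunit, rose by 0.61 ± 0.11 on the log2 scale (adjusted p = 0.000284 by edgeR), RCE1, which conjugates RUB, by 0.50 ± 0.10 (adjusted p = 0.00102), and ASK1, the SKP1-like adaptor that holds the F-box protein, by 0.47 ± 0.10 (adjusted p = 0.00119). All 4 calls were kept under all 11 alternatives. The fifth was SGT1B, a cochaperone of SCF complexes, at 0.35 ± 0.10 (adjusted p = 0.0117), a call that ended without control replicate 1 or 2 (adjusted p = 0.0769 and 0.113). CUL1, the cullin, did not pass (0.23 ± 0.09, adjusted p = 0.054).

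Of the 5 corepressors, 3 rose at 1000 µM and 0 fell (60%, beside 15.2%). The log2 changes of TPR3, TPR1 and TPL were 0.44 ± 0.11, 0.33 ± 0.10 and 0.25 ± 0.09 (adjusted p = 0.00489, 0.0198 and 0.0485, edgeR). The calls of TPR3 and TPR1 ended without control replicate 2 (adjusted p = 0.0851 and 0.24), and that of TPR1 also with DESeq2 (adjusted p = 0.0702). That of TPL ended with DESeq2 (adjusted p = 0.0657), with only these groups fitted (adjusted p = 0.101) and without any one control or 100 µM library (adjusted p = 0.0992 to 0.312).

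Auxin response genes outside the families did not move as one. Of 14 listed, 7 were tested. At 1000 µM against 100 µM 3 rose and 0 fell (42.9%, beside 8.65% of all genes). HAT2, an auxin-induced homeobox gene, measured 51.2 and 75.7 CPM without melatonin, 44.4 and 50.3 at 100 µM and 74.5 and 83.9 at 1000 µM (log2 change between the doses 0.74 ± 0.15, adjusted p = 0.00181 by edgeR). GH3.3 and GH3.5, whose enzymes join auxin to amino acids, differed between the doses by log2 1.39 ± 0.29 and 0.99 ± 0.23 (adjusted p = 0.00294 and 0.00592). Without 100 µM replicate 1 the adjusted p of the 3 was 0.064, 0.0755 and 0.12, and that of GH3.5 was 0.0554 without 100 µM replicate 2. With DESeq2 the adjusted p of GH3.3 was 0.167 and that of GH3.5 0.2. Against the control GH3.1, GH3.2 and GH3.6 fell at each dose (42.9% of the tested genes, beside 1.53% and 14.5% of all genes) and 0 rose. Each of these calls ended without control replicate 2, and those at 100 µM also without 100 µM replicate 1 or 2 (adjusted p = 0.147 to 0.356). GH3.2 measured 14.4 and 93.5 CPM without melatonin, 8.95 and 11.03 at 100 µM and 21.5 and 19.5 at 1000 µM, a log2 change of -1.41 ± 0.46 at 1000 µM (adjusted p = 0.0291), and without control replicate 2 the value was 0.51 (adjusted p = 0.11). The call also ended without 100 µM replicate 1 or 2 (adjusted p = 0.0602 and 0.0598), with DESeq2 (adjusted p = 0.391) and with only these groups fitted (adjusted p = 0.0723). GH3.1 was at -2.01 ± 0.62 (adjusted p = 0.0219) with that library and 0.29 without it, and its call also ended with DESeq2 (adjusted p = 0.263) and with only these groups fitted (adjusted p = 0.053). At 100 µM GH3.2 did not pass with DESeq2 (adjusted p = 0.261), and neither gene passed without control replicate 2 (adjusted p = 0.823 and 0.418). The third is GH3.6, with a log2 change of -0.60 ± 0.13 at 1000 µM (adjusted p = 0.00141, and 0.0834 without control replicate 2, and 0.467 at 100 µM). GH3.3 measured 26.3 and 78.7 CPM without melatonin, 27.3 and 30.6 at 100 µM and 76.2 and 75.3 at 1000 µM, control replicate 2 lying with the 1000 µM libraries and control replicate 1 with those at 100 µM.

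Promoters were searched for the auxin response element bound by ARFs, in the window from 250 bases before to 50 bases after the RefSeq gene start. The element TGTCTC, on either strand, was found in 12 of 29 Aux/IAA promoters (41.4%), 1 of 15 ARF promoters and 1 of 6 receptor promoters, beside 14.2% of 27443 protein-coding genes. TGTCGG, also searched on both strands, was found in 6 of 29 Aux/IAA promoters (20.7%), beside 5.12% of all. Of the 9 Aux/IAA genes that changed at 1000 µM, IAA8 and IAA28 hold TGTCTC and IAA16 holds TGTCGG. Among the tested Aux/IAA genes, only IAA1, IAA8, IAA19 (3 times) and IAA28 hold TGTCTC. Its other holders in the family, IAA5, IAA6, IAA15, IAA20, IAA30, IAA31, IAA32 and IAA34, were below the filter. IAA3 and IAA29, the genes called at both doses, hold no TGTCNN in this window. Neither do IAA11, IAA17 and ARF5, which were tested and called at neither dose. A match is only a run of letters, and both motifs are also matches to TGTCNN, which 81.3% of all promoters hold.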

How the data were processed

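Libraries were grouped by the treatment in the labels, 3 groups of 2. The values deposited by the authors are raw read counts for each gene. The submitters' processing notes list Bowtie2 (2.2.3), TopHat2 (2.0.12), HTSeq (0.6.1), DESeq (1.18.0) and build TAIR10. Options and the strand setting were not given in the sources used here. If strand was ignored, reads from an overlap cannot be assigned to either gene by position, which touches 14 of the 50 members.

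The counts went into edgeR 4.0.16 (R 4.3.3). The filterByExpr step kept 18380 of 32678 genes, TMM scaled the libraries, and the quasi-likelihood test (two-sided, group as the only term, all 6 libraries) was run with Benjamini-Hochberg adjustment over every tested gene at 0.05. The fit had 3 residual and 14.1 prior degrees of freedom and a biological coefficient of variation of 7.78%. Standard errors were taken as |log2 change| / sqrt(F), and 95% intervals use these degrees of freedom. The code was tested on simulated data. Alternatives were RLE size factors, no filter beyond 1 count, a replicate block, DESeq2 1.42.0, a fit of only the groups compared, and each library left out. Same-numbered libraries did not deviate together (correlations of -0.0662 to 0.0277 between the groups' replicate differences), so numbers were not taken as pairs. Counting floors cover counting error only, since PCR copies are not independent molecules.

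Names, transcript lengths, overlaps and sequences come from RefSeq's TAIR10.1 by gene identifier. The count table carries no coordinates, and printed positions are those of TAIR10.1. Members and lists were chosen with earlier results of these data known. Every library's value is given for members past the threshold in any comparison and for IAA19, IAA29, ARF5, ARF7, ARF19, TIR1 and AFB2, and up to 4 called genes a pathway list by smallest p are named. SGT1B, CUL1, LBD16, LBD18, LBD29, ARF20, TAS3A, MIR160C, GH3.1, GH3.2, IAA1 and IAA30 were named after their values were seen.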

Additional observations from a re-analysis of the deposited data

How the results depend on the processing

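The 3 counts of changed members, the 3 counts over all genes and 70 single log2 changes were recomputed under up to 11 alternatives. At 100 µM, IAA19 and IAA29 were recomputed under 10 of them and GH3.1 under 9, since the rest gave no adjusted p. Of 45 called changes, 11 kept their call under every one and 34 lost it under at least 1. Of 25 uncalled changes, 6 passed under at least 1. DESeq2 ended 17 calls, leaving out control replicate 2 ended 23, and RLE size factors ended 1, with the median of all genes moved by less than 0.1 (log2).

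At 100 µM against the control, 2 members and 610 genes changed. DESeq2 gave 0 of 38 tested members and 334 of 13734 tested genes. A fit of only these groups gave 6 members and 1697 genes, and no filter 1091 genes. Leaving out single libraries gave 0 to 6 members and 101 to 1757 genes. At 1000 µM, 15 members and 5442 genes changed, DESeq2 gave 3188 genes, and leaving out single libraries gave 6 to 18 members and 3318 to 6684 genes. Between the doses, 6 members and 2932 genes changed, DESeq2 gave 1567 genes, and leaving out single libraries gave 2 to 11 members and 1158 to 4442 genes. When 1 library of a group is left out, the other is assumed to vary like the other groups. The causes were not tested.

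With the replicate number as a block, 446, 4959 and 2508 genes and 2, 13 and 5 members changed in the 3 comparisons, and 7 single calls were lost, those of ARF4, ARF11, TPL and GH3.2 at 1000 µM and of IAA8, ASK1 and TPR3 between the doses. The numbers share only a label.

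The log2 change reversed in 11 of the 70. Without control replicate 2, GH3.1 and GH3.2 at 1000 µM, both called, were 0.29 and 0.51, and leaving out single libraries gave ranges of -2.83 to 0.29 and -2.19 to 0.51. The other reversals were of changes not called with all libraries. At 100 µM the ranges over single libraries left out were -0.070 to 0.0033 for IAA8, -0.021 to 0.022 for IAA16, -1.04 to 0.70 for IAA19, -0.24 to 0.029 for IAA28 and -0.18 to 0.087 for ARF5, and IAA16 was -0.0023 without the filter. At 1000 µM they were -1.16 to 0.57 for IAA19, -0.18 to 0.55 for IAA2, -0.022 to 0.14 for ARF7 and -0.096 to 0.030 for AFB2.

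Depth limits the 9 members below the filter, and 2 libraries a group limit every test.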
